A study of Homo sapiens with 9 samples.

Results

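The mitochondrial genome of human cells carries 37 genes, and all 37 were found in the count table of this series, out of 58347 gene IDs. They were chosen as every ID whose GENCODE 29 symbol starts with MT-. Of these genes, 13 encode proteins of the respiratory chain and ATP synthase, 2 encode ribosomal RNA and 22 encode transfer RNA. The plus strand of the reference carries 12 of the mRNA genes, both rRNA genes and 14 tRNA genes. MT-ND6 and 8 tRNA genes are annotated on the minus strand.

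RNA came from 9 libraries of K562, a human erythroleukaemia line, in a derivative named K562-FIRE. Every library, controls included, carries stably expressed dCas9, MS2-Fkbp and SS18-Frb under EF1a promoters, with selection markers for blasticidin, hygromycin and puromycin. Cells with an sgRNA to the HBG1 promoter received DMSO (n = 3) or 10 nM rapamycin (n = 3) for 24 h. Cells with a non-targeting sgRNA received DMSO (n = 1, replicate 2) or rapamycin (n = 2, replicates 1 and 2). Whether the line is 1 clone, and whether replicates were separate cultures, is not given in the sources used here, so p-values measure the spread between these libraries, which may be technical. Rapamycin tethers Fkbp to Frb, which recruits the SS18 fusion, a subunit of the BAF chromatin remodelling complex, and it also inhibits the mTORC1 kinase whatever the guide. The study asked whether BAF recruited in this way activates HBG1.

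The mitochondrial genome is a small circle in the organelle, present in many copies per cell. The polymerase POLRMT, with TFAM and TFB2M, transcribes both strands into long precursor RNAs. Transfer RNAs punctuate the mRNA and rRNA sequences in these precursors, and they are cut out by RNase P and by ELAC2. Most of the mRNAs receive poly(A) tails and the rRNAs short A tails, while the MT-ND6 mRNA is known to lack a poly(A) tail and tRNAs receive CCA. LRPPRC with SLIRP stabilises mRNAs of the organelle. Most respiratory chain subunits and every mitochondrial ribosomal protein are encoded in the nucleus.

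Libraries held 19797409 to 31619671 counts, with TMM scaling factors from 0.977 to 1.02. Every one of the 37 genes passed the filter on low counts, and the lowest and highest count of any of them in a library were 220 and 273073. The 10 markers of K562 summed to 15174 to 34960 CPM (counts scaled to library size, here with TMM factors throughout). The sums were 16.3 to 32.1 CPM for 6 markers of other blood cells and 42.7 to 55.6 CPM for 4 markers of non-blood cells. No marker of any set was at 0 in all 9 libraries. Poly-T beads selected the RNA, so rRNA and tRNA genes were counted from what that selection kept. The 15 listed nuclear RNAs without a poly(A) tail summed to 51.1, 58.7 and 152.7 CPM under DMSO and 53.7, 49.0 and 114.8 CPM under rapamycin with the HBG1 sgRNA (replicates 1, 2 and 3). With the non-targeting sgRNA they summed to 180.0 CPM under DMSO and to 116.3 and 131.8 CPM under rapamycin. RN7SL1 and RN7SL2 made up most of this sum in every library.

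A stretch that 2 members share is shown first, since its reads cannot be assigned to 1 gene. MT-ATP8 and MT-ATP6 share 46 bases on the plus strand, read in different frames, at chrM:8527-8572 (GRCh38, GENCODE 29). Capitals mark the start codon of MT-ATP6 and the stop codon of MT-ATP8, and reads within this stretch belong to both genes.
MT-ATP8 and MT-ATP6 overlap: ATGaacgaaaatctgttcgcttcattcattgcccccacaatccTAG

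The 7 tRNA genes that passed the test in at least the paired fit described further on are shown next, each 5′ to 3′ on its own strand with the anticodon in capitals. MT-TH, MT-TS2 and MT-TL2 (tRNAs for histidine, serine and leucine) abut without a gap on the plus strand, at chrM:12138-12206, chrM:12207-12265 and chrM:12266-12336, between MT-ND4 and MT-ND5. MT-TG (glycine, chrM:9991-10058) and MT-TR (arginine, chrM:10405-10469) flank MT-ND3 on the plus strand. MT-TT (threonine, chrM:15888-15953, plus strand) follows MT-CYB. MT-TE (glutamate, chrM:14674-14742) lies on the minus strand between MT-ND6 and MT-CYB.
MT-TH: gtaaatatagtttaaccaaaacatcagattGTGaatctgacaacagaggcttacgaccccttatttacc
MT-TS2: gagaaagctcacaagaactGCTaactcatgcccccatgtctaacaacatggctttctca
MT-TL2: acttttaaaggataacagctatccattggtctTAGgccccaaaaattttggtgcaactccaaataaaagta
MT-TG: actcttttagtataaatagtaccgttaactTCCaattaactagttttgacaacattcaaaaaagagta
MT-TR: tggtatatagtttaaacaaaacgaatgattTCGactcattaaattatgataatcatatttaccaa
MT-TT: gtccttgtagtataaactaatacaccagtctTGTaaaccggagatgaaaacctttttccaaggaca
MT-TE: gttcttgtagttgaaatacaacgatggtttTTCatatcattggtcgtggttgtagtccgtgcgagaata

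Each of these genes is short, from 59 bp (MT-TS2) to 71 bp (MT-TL2), and the sequences come from the GENCODE 29 transcripts. A read that reaches a tRNA gene can also lie in its neighbour, in a precursor or in the RNA of the opposite strand. How the authors' counting assigned such reads is not given in the sources used here. The counts of MT-TH and MT-TS2 tracked each other closely: with the HBG1 sgRNA they were 77.0 and 75.6 CPM, 83.6 and 80.6 CPM, and 92.8 and 91.1 CPM in the 3 DMSO libraries.

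The 37 genes took 5.02%, 5.42% and 5.31% of all counts in the 3 DMSO libraries with the HBG1 sgRNA, and 5.98%, 5.32% and 5.23% under rapamycin. The non-targeting DMSO library had 5.40%, and the non-targeting rapamycin libraries had 6.50% and 6.29%. In bulk RNA, fewer cells of a kind and less RNA per cell cannot be told apart. The non-targeting rapamycin libraries were above all others, and the HBG1 sgRNA groups overlapped. The mRNA genes held most of this share, from 3.98% (HBG1 sgRNA, DMSO, replicate 1) to 5.23% (non-targeting, rapamycin, replicate 1). The rRNA genes held 0.653% to 0.873% and the tRNA genes 0.333% to 0.403%.

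Levels between genes were compared as CPM per kb of gene length, averaged over the 9 libraries. MT-CO3, a core subunit of cytochrome c oxidase, had 8273 CPM per kb, and MT-ATP6, a membrane subunit of ATP synthase, had 7902. MT-CO2 and MT-CO1, the other core subunits of the oxidase, stood next to each other at 5861 and 5808. The complex I genes MT-ND4L and MT-ND4 followed at 4458 and 4375, then MT-ND2 at 3547, MT-ND1 at 2471, MT-CYB of complex III at 2074 and MT-ND3 at 1862. MT-ND5 had 809 CPM per kb and MT-ND6, the only mRNA gene on the minus strand, had the lowest of the mRNA genes at 625. MT-TS1, a serine tRNA gene antisense to the precursor just past MT-CO1, had the highest value at 13097 CPM per kb. MT-TW, the tryptophan tRNA gene, had the lowest at 196. For the short tRNA genes and for MT-ATP8 (10012 CPM per kb) the value may also hold reads shared with neighbours, and strand could not be told apart.

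Rapamycin was compared with DMSO in cells with the HBG1 sgRNA using edgeR's quasi-likelihood test over 23675 genes, with Benjamini-Hochberg adjustment and a threshold of 0.05. Among the 37 genes, 1 passed as higher, MT-TE, and 0 passed as lower. Over all tested genes 2.75% passed as higher and 4.05% as lower. The median log2 fold change was -0.03 over the 37 genes and 0.02 over all tested genes. By gene the change ran from -0.28 for MT-TT to 0.28 for MT-TE, with 18 genes above 0 and 19 below. At an unadjusted p under 0.05, 2 genes were higher and 7 lower. Of the 23675 tested genes, 4933 were under that p in either direction. DESeq2 passed 1 gene as lower, MT-TL2, and 1304 of the 23675 tested genes.

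Same-numbered HBG1 sgRNA libraries deviated together across genes, so the comparison was also fitted with replicate number as a block (the paired fit, 20179 genes tested in 6 libraries). Replicates 2 and 3 also deviated together when crossed (correlations of 0.194 and 0.258, against 0.278 and 0.231 for same numbers). Only replicate 1 (0.553) was thus set apart as a pair. In the paired fit 2 of the 37 genes rose (MT-RNR2, MT-TE) and 7 fell (MT-RNR1, MT-TG, MT-TR, MT-TH, MT-TS2, MT-TL2, MT-TT). Over all genes of that fit, 7.43% passed as higher and 9.62% as lower. None of the 13 mRNA genes passed in either fit of all the libraries. With any 1 pair left out of the paired fit, MT-TE still passed as higher and MT-TL2 as lower. The others depended on the pair: MT-RNR1 and MT-TG passed without pair 1, MT-RNR2, MT-TH and MT-TS2 without pair 2, and MT-TT without pair 3. MT-TR passed in none of these 3 fits, with adjusted p = 0.165, 0.0595 and 0.167 without pair 1, 2 and 3. Without pair 1, MT-ND2, MT-ND3, MT-TA, MT-TN and MT-TC passed as lower, and without pair 2 MT-TS1 passed as higher. Over all genes, 1482 of 20421 passed as lower without pair 1, and 1329 of 20583 as higher without pair 2. The 7 lower genes of the full paired fit are an rRNA gene and 6 tRNA genes of the plus strand. Libraries of the 2 treatments did not overlap in CPM for 1 gene that was higher under rapamycin and 3 that were lower (MT-TR, MT-TL2, MT-TT), against 12.2% and 13.1% of all tested genes.

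**Figure D1:**
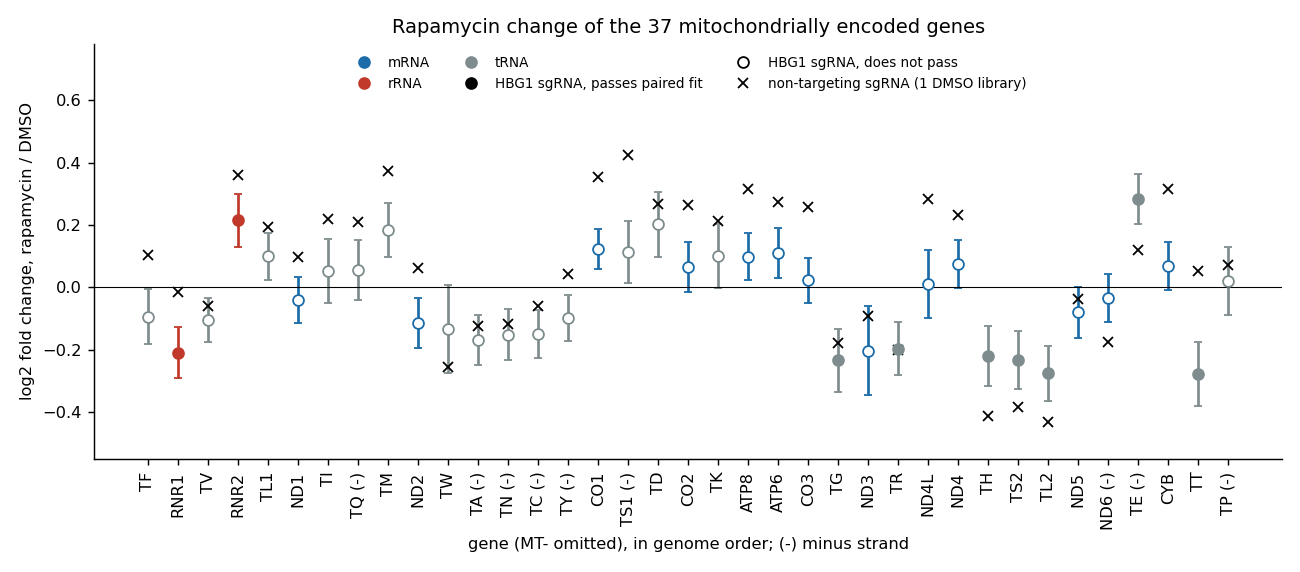
Log2 fold change of rapamycin against DMSO (vertical axis) for the 37 genes in genome order, by class. Circles with bars are the HBG1 sgRNA fit with its standard error, filled where the paired fit passed, and crosses are the non-targeting sgRNA without a test. The filled circles are MT-RNR2 and MT-TE above 0 and MT-RNR1 with 6 tRNA genes below 0.

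The 2 rRNA genes moved apart under rapamycin in the paired fit. MT-RNR1 (ENSG00000211459, chrM:648-1601) encodes the RNA of the small ribosomal subunit in mitochondria, and MT-RNR2 (ENSG00000210082, chrM:1671-3229) that of the large subunit. With the HBG1 sgRNA, MT-RNR1 had 1591, 1435 and 1462 CPM under DMSO and 1441, 1141 and 1300 CPM under rapamycin (replicates 1, 2 and 3). It was lower under rapamycin in each pair, and the groups overlapped by the first rapamycin library. Its log2 fold change was -0.21 (SE 0.081, adjusted p = 0.143) in the unpaired fit and -0.21 (adjusted p = 0.0159) in the paired fit. Without the first rapamycin library the unpaired value was -0.29 (adjusted p = 0.0187).

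MT-RNR2 had 5553, 5137 and 5182 CPM under DMSO and 6966, 5247 and 6198 CPM under rapamycin. It was higher in each pair, by 0.33, 0.03 and 0.26 on the log2 scale, and the second rapamycin library lay within the DMSO range. The log2 fold change was 0.21 (SE 0.085, adjusted p = 0.154) unpaired and 0.21 (adjusted p = 0.0175) paired. Without the second rapamycin library the unpaired value was 0.31 (adjusted p = 0.0208). In the non-targeting libraries MT-RNR1 had 1381 CPM under DMSO and 1410 and 1324 under rapamycin, while MT-RNR2 had 5482 CPM and 7368 and 6697. MT-RNR2 was thus higher there too in both rapamycin libraries than in the single DMSO library, and MT-RNR1 lay on either side of it.

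The ratio of MT-RNR1 to MT-RNR2 counts, which needs no scaling between libraries, was 0.287, 0.279 and 0.282 under DMSO and 0.207, 0.218 and 0.210 under rapamycin with the HBG1 sgRNA. The means were 0.283 ± 0.0037 and 0.211 ± 0.0055 (SD, n = 3 each), and the groups did not overlap. The difference was -0.42 on the log2 scale, with p = 0.1 in a two-sided exact permutation test, which is the smallest p that 3 against 3 libraries allow (adjusted p = 0.3 over 3 ratios). With the non-targeting sgRNA the ratio was 0.252 under DMSO and 0.191 and 0.198 under rapamycin. Relabelling treatment within each guide over all 9 libraries gave a difference of -0.40 with exact p = 0.0167, the smallest of 60 relabelings, and an adjusted p = 0.05, which is not under the threshold. The ratio was lower under rapamycin in each of the 3 pairs, by 0.47, 0.36 and 0.43 on the log2 scale.

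**Figure D2:**
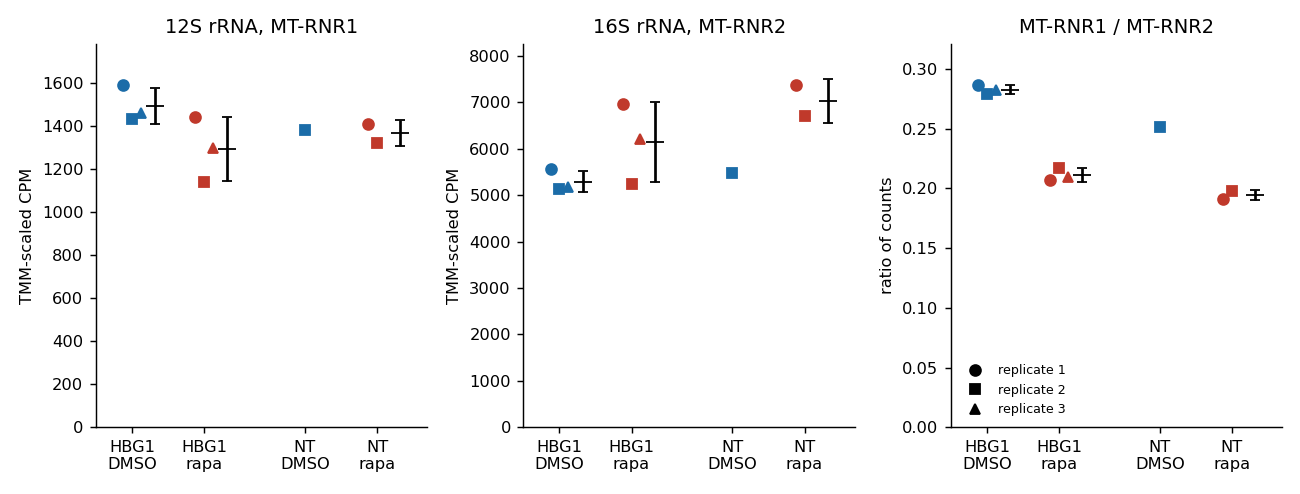
CPM of MT-RNR1 and MT-RNR2 and the ratio of their counts, 1 symbol per library by replicate, with mean and SD beside groups of at least 2 libraries. NT is the non-targeting sgRNA and rapa is rapamycin. The ratio sits at 0.279 to 0.287 in the HBG1 sgRNA DMSO libraries and at 0.207 to 0.218 under rapamycin.

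MT-RNR2 was also set against MT-ND1, its neighbour downstream on the same strand, from which the tRNA gene MT-TL1 separates it. With the HBG1 sgRNA, the ratio of counts was 2.397, 2.22 and 2.23 under DMSO and 2.78, 2.39 and 3.01 under rapamycin. The second rapamycin library lay within the DMSO range. The log2 difference was 0.25 (exact permutation p = 0.2, adjusted p = 0.3). The non-targeting libraries gave 2.28 under DMSO and 2.77 and 2.69 under rapamycin, and over all 9 libraries the exact p was 0.0333 (adjusted p = 0.05).

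The summed level of the 15 nuclear RNAs without a poly(A) tail, given above, split the libraries at either treatment. It was 49.0 to 58.7 CPM in replicates 1 and 2 of the HBG1 sgRNA. In replicate 3 and the non-targeting libraries it was 114.8 to 180.0 CPM. RN7SL1 had 12.1 to 18.3 CPM in the first of these sets and 40.9 to 65.5 CPM in the second. RN7SL2 had 23.0 to 27.7 CPM and 61.5 to 100.6 CPM. The sum thus mostly reports RN7SL1 and RN7SL2 and says little of the other listed RNAs. The part of this sum in the results for rRNA genes, tRNA genes and MT-ND6, and between guides, was not tested. Of the 15, 8 passed the count filter and 0 of these passed the test under rapamycin.

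The 13 mRNA genes, of which none passed, were split by pair. In pair 1 all 13 were higher under rapamycin, with a median of 0.24 on the log2 scale. In pair 2 this held for 3 genes (median -0.06) and in pair 3 for 1 (median -0.09). MT-CO1 was the single mRNA gene that was higher in every pair. The depth of the pairs differed as well, with 19797409 counts under rapamycin and 31619671 under DMSO in pair 1, and 30107349 and 20190749 in pair 3. The part of depth in this split was not tested.

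**Figure D3:**
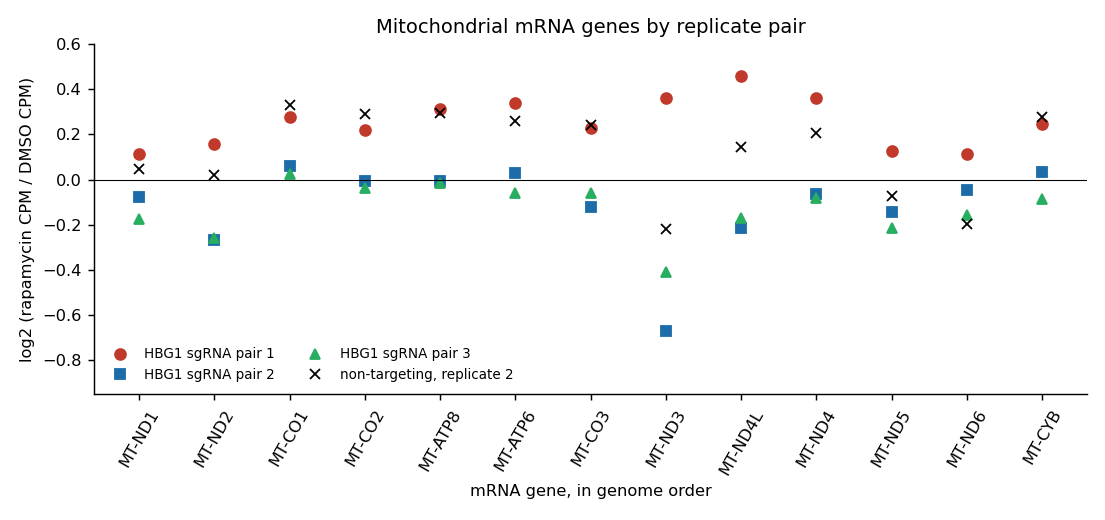
Log2 ratio of rapamycin to DMSO CPM (vertical axis) for the 13 mRNA genes in genome order, by replicate pair of the HBG1 sgRNA and for replicate 2 of the non-targeting sgRNA. All 13 circles (pair 1) lie above 0, against 3 squares (pair 2) and 1 triangle (pair 3).

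Complex I, the NADH dehydrogenase that feeds electrons into the chain, takes 7 subunits from this genome. MT-ND3 varied most. It had 590, 698 and 685 CPM under DMSO and 758, 439 and 516 CPM under rapamycin with the HBG1 sgRNA, so the first pair ran opposite to the others. Its log2 fold change was -0.20 (SE 0.14, adjusted p = 0.464). Without the first rapamycin library MT-ND3 (log2 -0.46, adjusted p = 0.00473) and MT-ND2 (log2 -0.23, adjusted p = 0.0294) passed as lower. Over all genes of that fit, 1023 of 23532 passed as lower. MT-ND2 had 3570, 3878 and 3813 CPM under DMSO and 3982, 3227 and 3192 CPM under rapamycin (log2 -0.11, adjusted p = 0.46).

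MT-ND1 had 2317, 2314 and 2319 CPM under DMSO, the tightest group of any mRNA gene, and 2506, 2192 and 2057 CPM under rapamycin. MT-ND4L had 961, 1370 and 1294 CPM under DMSO and 1318, 1181 and 1152 CPM under rapamycin. MT-ND4, which overlaps MT-ND4L by 7 bases, had 5094, 5963 and 5655 CPM and then 6544, 5713 and 5347 CPM. In MT-ND4L and MT-ND4 the first DMSO library was the lowest, and the first rapamycin library the highest of its group. MT-ND5 had 1241, 1320 and 1539 CPM under DMSO and 1353, 1195 and 1328 CPM under rapamycin. Their log2 fold changes ran from -0.08 (MT-ND5) to 0.08 (MT-ND4), and the adjusted p-values from 0.631 to 0.972.

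MT-ND6, the complex I subunit of the minus strand, had 285, 308 and 346 CPM under DMSO and 307, 298 and 311 CPM under rapamycin (log2 -0.03, SE 0.076, adjusted p = 0.848). MT-CYB, the only complex III subunit of this genome, lies opposite on the plus strand, past MT-TE. It had 2200, 2321 and 2194 CPM under DMSO and 2606, 2373 and 2065 CPM under rapamycin (log2 0.07, adjusted p = 0.674). The ratio of MT-ND6 to MT-CYB counts was 0.129, 0.133 and 0.158 under DMSO and 0.118, 0.126 and 0.150 under rapamycin. It was lower in each pair, the groups overlapped, and the difference of -0.09 on the log2 scale had an exact permutation p = 0.5. In the non-targeting libraries the ratio was 0.183 under DMSO and 0.129 and 0.132 under rapamycin. Over all 9 libraries relabelled within guides the difference was -0.21 (exact p = 0.15). The non-targeting DMSO library had the highest ratio. It also had the highest sum of nuclear RNAs without a poly(A) tail (180.0 CPM, mostly RN7SL1 and RN7SL2). Replicate 3 of the HBG1 sgRNA followed in ratio, at 152.7 and 114.8 CPM. The non-targeting rapamycin libraries, at 116.3 and 131.8 CPM, had ratios within the range of replicates 1 and 2 of the HBG1 sgRNA (49.0 to 58.7 CPM). This relation was not tested.

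Complex IV, cytochrome c oxidase, takes its 3 catalytic core subunits from the mitochondrion. MT-CO1 had 7951, 8377 and 8157 CPM under DMSO and 9640, 8723 and 8299 CPM under rapamycin with the HBG1 sgRNA. The third rapamycin library lay within the DMSO range, and the log2 fold change was 0.12 (SE 0.064, adjusted p = 0.292). MT-CO2 had 3906, 3853 and 3633 CPM under DMSO and 4542, 3837 and 3536 CPM under rapamycin (log2 0.06, adjusted p = 0.706). MT-CO3 had 6081, 6384 and 6115 CPM and then 7127, 5863 and 5875 CPM (log2 0.02, adjusted p = 0.906). In both genes 1 rapamycin library was above and 1 or more below the DMSO range.

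Complex V, the ATP synthase, takes MT-ATP6 and MT-ATP8, whose shared bases are printed above. MT-ATP6 had 4797, 5257 and 4904 CPM under DMSO and 6071, 5368 and 4706 CPM under rapamycin (log2 0.11, adjusted p = 0.474). MT-ATP8 had 1775, 2028 and 1881 CPM and then 2208, 2017 and 1861 CPM (log2 0.10, adjusted p = 0.496). The first rapamycin library was the highest for both genes.

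Among the 22 tRNA genes, MT-TE passed in both fits. It had 64.5, 59.4 and 67.98 CPM under DMSO and 81.8, 74.7 and 77.0 CPM under rapamycin with the HBG1 sgRNA. Every rapamycin library was above every DMSO library. The log2 fold change was 0.28 (SE 0.079, adjusted p = 0.0401) unpaired and 0.29 (adjusted p = 0.00542) paired. The unpaired call was lost when any 1 HBG1 sgRNA library or either non-targeting rapamycin library was left out, with adjusted p up to 0.188 without the second HBG1 sgRNA DMSO library. In the non-targeting libraries MT-TE had 84.9 CPM under DMSO and 91.4 and 93.2 CPM under rapamycin.

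MT-TH, MT-TS2 and MT-TL2, the row of adjacent genes printed above, were lower under rapamycin in every pair. MT-TL2 had 66.2, 72.1 and 76.5 CPM under DMSO and 52.8, 59.9 and 64.3 CPM under rapamycin, with no overlap. Its log2 fold change was -0.28 (SE 0.088, adjusted p = 0.0747) unpaired and -0.27 (adjusted p = 0.00787) paired. MT-TH had 77.0, 83.6 and 92.8 CPM and then 63.9, 71.5 and 81.5 CPM (paired adjusted p = 0.0236). MT-TS2 had 75.6, 80.6 and 91.1 CPM and then 62.5, 70.2 and 77.3 CPM (paired adjusted p = 0.0185). In the last 2 genes the third rapamycin library reached into the DMSO range.

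With the non-targeting sgRNA the same 3 tRNA genes were also lower under rapamycin. MT-TL2 had 103.8 CPM under DMSO and 75.3 and 78.5 CPM under rapamycin, a log2 difference of -0.43. The differences were -0.41 for MT-TH and -0.38 for MT-TS2. These rest on 1 DMSO library and were not tested. That library was also the highest of all 9 in the summed nuclear RNAs without a poly(A) tail, mostly RN7SL1 and RN7SL2. The mRNA genes on either side did not pass in the HBG1 sgRNA libraries, with log2 fold changes of 0.08 for MT-ND4 and -0.08 for MT-ND5.

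MT-TG had 123, 119 and 145 CPM under DMSO and 114, 91.4 and 122 CPM under rapamycin (log2 -0.23, adjusted p = 0.198 unpaired and 0.0162 paired). MT-TR had 83.9, 76.4 and 85.5 CPM and then 72.6, 67.2 and 74.4 CPM (log2 -0.20, adjusted p = 0.193 unpaired and 0.0459 paired). MT-TT had 47.4, 45.1 and 40.2 CPM and then 39.1, 31.5 and 38.9 CPM (log2 -0.28, adjusted p = 0.119 unpaired and 0.0402 paired). MT-TR and MT-TT did not overlap between treatments, and MT-TG did. With the non-targeting sgRNA the log2 differences were -0.18, -0.20 and 0.05.

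By strand, the 14 tRNA genes of the plus strand had a median log2 fold change of -0.12, with 5 above 0, and the 8 of the minus strand had -0.04, with 4 above 0. Over all tested genes the median was 0.02. In the paired fit 6 of the 14 fell and 0 rose, and 1 of the 8 rose and 0 fell, against 7.43% of all genes of that fit that passed as higher and 9.62% as lower. The difference between strands was not tested. Strand here is that of the annotated gene. The strand setting of the counting is not given in the sources used here, so these counts may hold RNA of the opposite strand. The plus-strand tRNA genes summed to 1171, 1116 and 1225 CPM under DMSO and 1127, 1051 and 1171 CPM under rapamycin. The minus-strand genes summed to 2358, 2378 and 2382 CPM and then 2575, 2204 and 2225 CPM.

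The other tRNA genes did not pass in either fit. MT-TS1 had the highest counts of the class, with 937, 851 and 765 CPM under DMSO and 1078, 807 and 875 CPM under rapamycin (log2 0.11, adjusted p = 0.579). MT-TY (tyrosine) had 421, 464 and 488 CPM and then 438, 437 and 406 CPM, and MT-TC (cysteine) had 346, 375 and 401 CPM and then 355, 340 and 317 CPM. MT-TA, MT-TN, MT-TC and MT-TY (alanine, asparagine, cysteine, tyrosine) form a cluster on the minus strand, and each was higher in pair 1 and lower in pairs 2 and 3. MT-TD (aspartate, log2 0.20) and MT-TM (methionine, log2 0.18) were higher in every pair, with adjusted p = 0.285 and 0.245. MT-TL1 (leucine, log2 0.10, adjusted p = 0.497) was also higher in every pair. MT-TF and MT-TV (phenylalanine, valine), which flank MT-RNR1, were lower in every pair, with log2 fold changes of -0.09 and -0.10 (adjusted p = 0.601 and 0.45). MT-TI, MT-TQ, MT-TW, MT-TK and MT-TP (isoleucine, glutamine, tryptophan, lysine, proline) were mixed between pairs and lay between -0.13 and 0.10.

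**Figure D4:**
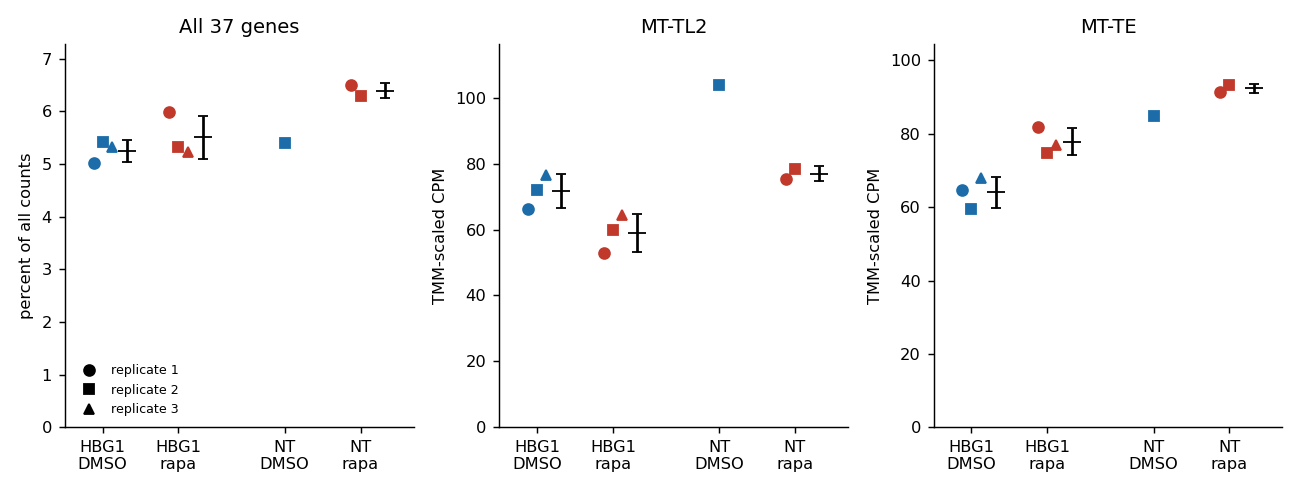
Percent of all counts on the 37 genes, and CPM of MT-TL2 and MT-TE, 1 symbol per library by replicate, with mean and SD beside groups of at least 2 libraries. NT is the non-targeting sgRNA and rapa is rapamycin. For MT-TL2 the HBG1 sgRNA rapamycin libraries (52.8 to 64.3 CPM) lie below the DMSO libraries (66.2 to 76.5 CPM), and for MT-TE they lie above.

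Under rapamycin, all 37 genes had a lower fitted level with the HBG1 sgRNA than with the non-targeting sgRNA, and 0 passed the edgeR test. The genes lie on one genome and are not independent of each other. Over all genes tested 0.0296% passed. The median log2 difference was -0.21, against 0.01 over all tested genes. Of the 37, 20 had an unadjusted p under 0.05, as had 1484 of the 23675 tested genes. In 22 of the 37 genes all 3 HBG1 sgRNA libraries were below both non-targeting libraries, as held for 11.3% of all tested genes. Under DMSO, 28 of the 37 genes had a lower mean with the HBG1 sgRNA than the level in the single non-targeting library, with a median log2 difference of -0.10, untested.

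MT-TG differed most between guides. It had 114, 91.4 and 122 CPM with the HBG1 sgRNA under rapamycin and 161 and 168 CPM with the non-targeting sgRNA, a log2 difference of -0.59 (SE 0.11, adjusted p = 0.198). Under DMSO it had 123, 119 and 145 CPM against 186 CPM. MT-ND5 had 1353, 1195 and 1328 CPM against 1769 and 1680 CPM under rapamycin (log2 -0.42, adjusted p = 0.458). Under DMSO MT-ND5 had 1241, 1320 and 1539 CPM against 1769 CPM. In both genes the HBG1 sgRNA libraries were below every non-targeting library at either treatment. The summed nuclear RNAs without a poly(A) tail, mostly RN7SL1 and RN7SL2, also differed between these libraries. They had 49.0 to 58.7 CPM in replicates 1 and 2 of the HBG1 sgRNA, and 114.8 to 180.0 CPM in replicate 3 and with the non-targeting sgRNA. Their part in the difference between guides was not tested. DESeq2 passed MT-TG (adjusted p = 0.00312) and MT-ND5 (adjusted p = 0.0293) under rapamycin, and edgeR with a replicate block over all 9 libraries passed these and MT-TS2. Over all 23675 tested genes, 13 passed by DESeq2 and 21 with that block. Replicate numbers were not shown to pair libraries across guides.

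MT-CO1 had 9640, 8723 and 8299 CPM with the HBG1 sgRNA under rapamycin and 10777 and 10395 CPM with the non-targeting sgRNA (log2 -0.25, adjusted p = 0.773). MT-ND4L had 1318, 1181 and 1152 CPM against 1795 and 1494 CPM (log2 -0.43, adjusted p = 0.773). Under DMSO MT-CO1 had 7951, 8377 and 8157 CPM against 8278 CPM, within the range of the HBG1 sgRNA libraries.

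The rapamycin changes with each guide come from separate libraries, and the interaction tests their difference. None of the 37 genes passed it by edgeR or by DESeq2. By edgeR 0 of them had an unadjusted p under 0.05, against 678 of the 23675 tested genes. Over all genes tested 0.00422% passed. The 13 mRNA genes had a median log2 change of 0.26 under rapamycin with the non-targeting sgRNA, with 10 above 0, and of 0.02 with the HBG1 sgRNA, with 8 above 0. The first of these values rests on 1 DMSO library. MT-TS1 had the highest change with the non-targeting sgRNA, 0.42, from 766 CPM under DMSO to 967 and 1087 CPM. Its interaction was -0.31 (SE 0.18).

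The nuclear genes that transcribe, process and replicate this genome were counted in the same libraries. Of 34 listed genes of mitochondrial transcription and RNA processing, 12 fell and 0 rose with the HBG1 sgRNA in the unpaired fit, and 19 fell in the paired fit. Over all tested genes 4.05% passed as lower unpaired and 9.62% paired. Their median log2 fold change was -0.24, against 0.02 over all tested genes. POLRMT had 197, 189 and 195 CPM under DMSO and 142, 173 and 157 CPM under rapamycin (log2 -0.30, SE 0.077, adjusted p = 0.0278). TFAM, which packages the genome and activates its promoters, had 148, 154 and 149 CPM and then 115, 116 and 123 CPM (log2 -0.35, adjusted p = 0.00652). In neither gene did the treatments overlap.

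LRPPRC fell by 0.38 on the log2 scale (adjusted p = 0.00249), from 343, 354 and 360 CPM to 270, 264 and 276 CPM. TFB2M had 64.4, 63.8 and 66.6 CPM and then 54.7, 56.7 and 53.9 CPM, with an adjusted p = 0.116 unpaired and 0.0268 paired. MRM3, which methylates the large rRNA, had the largest fall of the list at -0.60 (adjusted p = 0.0099). PNPT1, an RNA degrading enzyme, fell by 0.45, and TBRG4, a FASTK family protein, by 0.44. FASTKD3 fell by 0.43, and PRORP, the nuclease of mitochondrial RNase P, by 0.41. With the non-targeting sgRNA the median of the 34 was -0.25 (untested), with 31 below 0 and 3 above. PRORP was at 0.21 there, TFAM at -0.09 and FASTKD3 at -0.18, while MRM3 was at -0.80 and TBRG4 at -0.51.

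Of 18 genes of mitochondrial DNA replication and maintenance, 5 fell (OPA1, ATAD3A, RNASEH1, MFN2, TOP1MT) and 0 rose unpaired, and 7 fell paired. Their median was -0.10. OPA1 and MFN2 are membrane fusion proteins, and TOP1MT is the topoisomerase of the organelle. Of 9 tested regulators of biogenesis, PPRC1, a coactivator related to PPARGC1A, fell by 0.44 (adjusted p = 0.00548). PPARGC1A itself had 0 to 12 counts per library and did not pass the filter. In the paired fit 2 of the 9 tested regulators fell and 1 rose, where 7.43% of all genes passed as higher. Of 78 mitochondrial ribosomal protein genes, 6 fell and 0 rose unpaired, and 23 fell paired, with a median of -0.15. These counts stand beside the 4.05% (unpaired) and 9.62% (paired) of all tested genes that passed as lower. The 6 were MRPS12 (-0.49), MRPS26 (-0.41), MRPS17 (-0.37), MRPL4 (-0.36), MRPS7 (-0.35) and MRPL49 (-0.28), the last outside the naming rule and added after its value was seen.

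Nuclear subunits of the same complexes were counted against the 4.05% of all tested genes that passed as lower in the unpaired fit. Of 37 nuclear complex I genes 2 fell (NDUFS6, NDUFA10), with a median of -0.08. For complex III it was 0 of 9 (median -0.12) and for complex IV 0 of 11 (median 0.08). For complex V it was 1 of 15, ATP5MC1, a gene for the membrane ring subunit (median -0.06). None of these genes passed as higher in the unpaired fit. In the paired fit 4 complex I genes fell and 1 rose, 2 of complex III fell, and 3 of complex V fell and 1 rose. For complex IV it was 0. Over all genes of that fit 7.43% passed as higher and 9.62% as lower. Between guides under rapamycin, the nuclear subunits had medians above 0 where every mitochondrial gene was below it. The medians were 0.13 for complex I (33 of 37 above 0), 0.14 for complex III (9 of 9), 0.26 for complex IV (10 of 11), 0.17 for complex V (13 of 15) and 0.13 for mitochondrial ribosomal proteins (73 of 78). In each group 0 passed the test, and over all tested genes the median was 0.01.

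**Figure D5:**
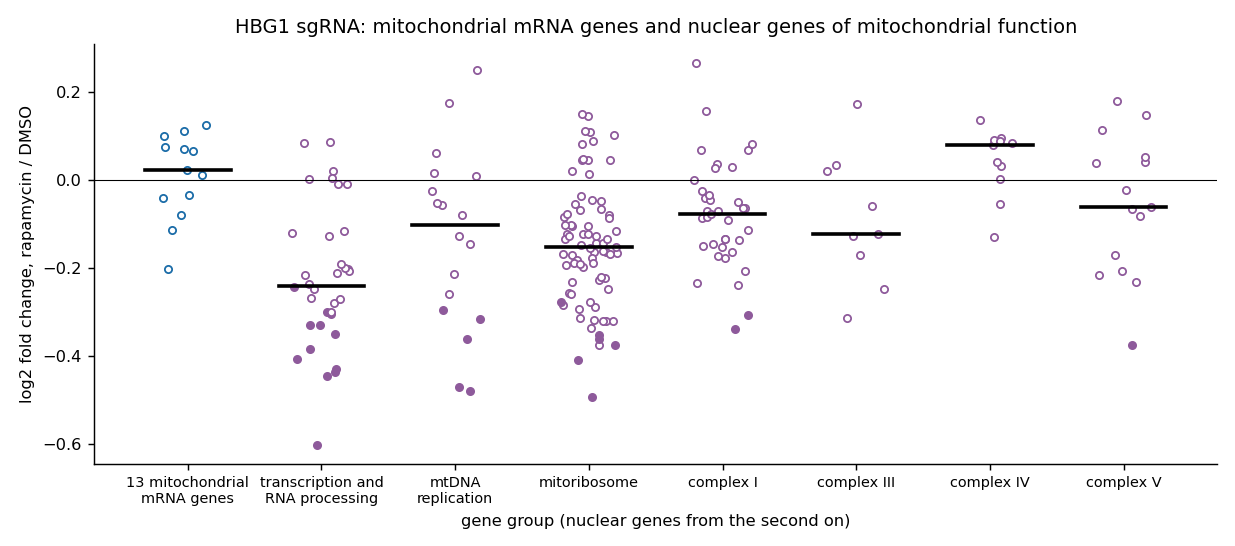
Log2 fold change of rapamycin against DMSO with the HBG1 sgRNA (vertical axis) for the 13 mitochondrial mRNA genes and 7 groups of nuclear genes, 1 circle per gene. Filled circles passed the unpaired edgeR test, and bars are medians. The group of transcription and RNA processing has a median of -0.24 with 12 filled circles, and the mitochondrial mRNA genes have 0.02 and none.

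Nuclear copies of mitochondrial genes, old insertions in the chromosomes, can share reads with the members. Of 407 such genes in the table, 293 had 0 counts in every library, and the sum over all was 2.07% to 2.51% of the members' counts. MTND2P28, MTCO1P12 and MTATP6P1 held 91.5% to 93.9% of it. Over their lengths they match MT-ND2, MT-CO1 and MT-ATP6 at 98.37%, 98.70% and 98.53% of bases. Their own counts, separate from those of the members, equalled 12.1% to 15.95% of the MT-ND2 count, 3.49% to 4.38% of MT-CO1 and 5.06% to 7.12% of MT-ATP6. Under rapamycin their log2 fold changes were -0.20, 0.13 and -0.02, against -0.11, 0.12 and 0.11 for the members, and none passed. How the authors' counting placed reads that match both is not given in the sources used here.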

How the data were processed

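The authors deposited whole-number read counts per Ensembl gene, 1 column per library. Per the submitters' processing notes, STAR 2.7.3a, Subread 2.0.0 with featureCounts, and GRCh38 were used. Strand setting and the treatment of multi-mapping or overlapping reads are not given in the sources used here. GENCODE 29 gave symbols for 58039 of 58347 IDs (99.47%).

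These counts entered edgeR 4.0.16 (R 4.3.3): filterByExpr by group at a minimum count of 10, TMM, glmQLFit and glmQLFTest over all 9 libraries with 1 mean per group. Standard errors are the log2 fold change over the square root of F. Comparisons against the single non-targeting DMSO library have no test. Ratios of neighbouring genes had two-sided exact permutation tests. Scripts were tested on simulated data.

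Deviations of same-numbered HBG1 sgRNA libraries from their group means correlated at 0.553, 0.278 and 0.231 over the 11498 genes whose mean log2 CPM reached 3, all above the limit of 0.1. Replicates 2 and 3 also correlated when crossed (0.194 and 0.258), so the limit did not set pairs 2 and 3 apart from each other. Replicates differed by more than sampling noise (chi-square per gene 4.74 to 18.6). Members and lists were chosen with earlier results of these data known. All 37 genes were named, and in each nuclear list up to 5 highest and 5 lowest called genes, plus POLRMT, TFAM, TFB2M, LRPPRC and PPARGC1A. Alternatives were other scalings, no filter, DESeq2 1.42.0, an additive model, blocks and leaving out libraries.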

Additional observations from a re-analysis of the deposited data

How the results depend on the processing

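The count of mitochondrial genes that were higher under rapamycin with the HBG1 sgRNA was 1, and it was 0 in the 6 HBG1 sgRNA libraries without a replicate block, 2 with the replicate block, 2 with the block within each guide, 2 without the filter, 4 in the additive model of guide and treatment, and 3 with the block and without pair 2. The count of lower genes was 0, and it was 7 with the replicate block, 7 with the block within each guide, 1 by DESeq2, 1 without the filter, 3 in the additive model, and 8, 3 and 2 with the block and without pair 1, 2 or 3. Over all genes, 588 of 20179 were higher in the 6 libraries without a block and 1497 of 23675 with the block within each guide. It was 959 of 38129 without the filter, 1416 of 23675 in the additive model and 1329 of 20583 without pair 2. Lower genes were 2050 of 23675 with the block within each guide, 1304 of 23675 by DESeq2 and 1197 of 38129 without the filter. They were 1847 of 23675 in the additive model. Without pair 1, 2 or 3 they were 1482 of 20421, 1870 of 20583 and 1104 of 20468. Leaving out 1 library gave 0 to 1 higher and 0 to 3 lower genes. The 3 lower genes came without the first HBG1 sgRNA rapamycin library, where 1023 of all 23532 tested genes were lower. The count between guides under rapamycin was 0. It was 2 by DESeq2, 5 without the filter and 3 with the replicate block over all 9 libraries. Over all tested genes these fits passed 7 of 23675, 13 of 23675, 91 of 38129 and 21 of 23675. The other scalings changed none of the 3 counts of mitochondrial genes (higher, lower, between guides). The count for the interaction was 0 under every alternative run. The ratio of MT-RNR1 to MT-RNR2 ran from -0.44 to -0.40 on the log2 scale over its alternatives, with the sign flips of the replicate block at an exact p of 0.25, the smallest that 3 pairs allow.

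Small changes of genes that did not pass reversed. With the replicate block and without pair 1, log2 fold changes were -0.019 for MT-CO2, -0.017 for MT-TK, -0.0075 for MT-ATP8, -0.011 for MT-ATP6, -0.087 for MT-CO3, -0.19 for MT-ND4L, -0.068 for MT-ND4 and -0.024 for MT-CYB. Without pair 3 they were 0.022 for MT-ND1, 0.036 for MT-ND6 and -0.059 for MT-TP, and MT-ND1 was at 0.00096 in the additive model. Leaving out 1 library gave ranges of -0.12 to 0.022 for MT-ND1, -0.057 to 0.14 for MT-TI, -0.033 to 0.13 for MT-TQ, -0.20 to 0.0043 for MT-TW, -0.016 to 0.19 for MT-TS1, -0.042 to 0.14 for MT-CO2, -0.077 to 0.070 for MT-CO3, -0.13 to 0.11 for MT-ND4L, -0.010 to 0.14 for MT-ND4, -0.14 to 0.013 for MT-ND5, -0.098 to 0.043 for MT-ND6, -0.012 to 0.15 for MT-CYB and -0.059 to 0.13 for MT-TP. The cause was not tested. Groups held 3 libraries or fewer, and each gene had at least 220 counts in every library. The fits less 1 pair and with the block within each guide were added after seeing the data.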
